A study of Homo sapiens with 20 samples.

Results

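The libraries described here are the 4 from HEK293T cells given the HUWE1 small interfering RNA (siRNA) that the labels call set 2, and the 4 non-targeting siRNA libraries that serve as controls for sets 2 and 3. They were chosen by label and make up 8 of the 20 libraries of the study. All groups are HEK293T, an established line derived from human embryonic kidney that expresses SV40 large T antigen. The other libraries are 4 of HUWE1 siRNA set 3, which share the same controls, and a separately tabulated set 1 of 4 HUWE1 siRNA and 4 non-targeting libraries. How the siRNA sets differ, which sequences they hold and when cells were collected was not stated in the sources used here. The 4 libraries of a group are biological replicates per the labels. The comparison asks which transcripts differ in abundance when HUWE1 is knocked down with set 2, and where set 2 differs from set 3.

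HUWE1 is a very large ubiquitin ligase of the HECT family, enzymes that take ubiquitin from an E2 enzyme onto a cysteine of their own before passing it to a substrate. It is known for marking MYC, MCL1, histones and other short-lived or unassembled proteins, often for destruction by the proteasome. An siRNA guides Argonaute to a matching transcript, which is then cleaved, so the first readout of a knockdown is the target's own mRNA. Loss of a ligase acts first on protein, which was not measured here.

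The table held 45372 genes, of which 15860 had a TPM (a transcript's share of its library, corrected for length) of 1 or more in at least 4 of the 12 libraries of sets 2 and 3 and their controls. All fold changes below are differences of group means on the log2(TPM + 1) scale from limma, fitted on those 12 libraries together, and understate the change of low genes. Called genes are those whose p, after Benjamini-Hochberg adjustment over all genes tested, was under 0.05. Sequencing depth is unknown because each library sums to the same total. Each library held between 15344 and 15626 genes at a TPM of 1 or more. The lowest correlation across genes between 2 libraries of a group was 0.980 in the controls, between replicates 1 and 4, and 0.992 in set 2. A principal component of the libraries' deviations from their own group held 39.6% of the variance. On it control replicates 1 and 4 scored 24.8 and -25.0 and the 4 set 2 libraries lay between -10.9 and 11.5. The line's own markers were present: 14 of 16 listed for HEK293T passed the filter, and their summed TPM was 1428 to 1690 in the controls and 1472 to 1720 in set 2. Of the 8 hepatocyte markers, 0 passed, and SERPINA1 was listed at 0. Of 11 blood markers 3 passed, with HBB and MS4A1 listed at 0. Of 12 fibroblast markers 6 passed, MMP2, COL1A1 and PDGFRA among them, and DCN, FAP and COL1A2 stayed under a mean TPM of 0.05 in the controls.

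The targeted transcript was reduced and little else passed the test. Limma called 2 genes of 15860 in set 2 (0.0126%), HUWE1 and MED4, both lower (0.0126%), and 0 higher (0%). At an unadjusted p under 0.05 there were 1401 genes (8.83%), 600 lower (3.78%) and 801 higher (5.05%). That count was 3983 without control replicate 4 and 939 when only the 2 groups were fitted. Over all genes tested, 48.3% of fold changes were above 0 and 51.7% below, with a median of -0.004, a 5th percentile of -0.20 and a 95th percentile of 0.20. The precision was such that the 95% confidence interval lay within 0.5 either way for 14161 genes (89.3%), and within 1 for 15679 (98.9%). For the 11953 genes at a mean level of 5 TPM or above, 95.2% of intervals lay within 0.5. The median half-width of the interval, which is not adjusted for the number of genes, was 0.16. The adjusted threshold asked for more: MMP2 at -0.45 and TUSC2 at -0.31 were not called.

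**Figure D1:**
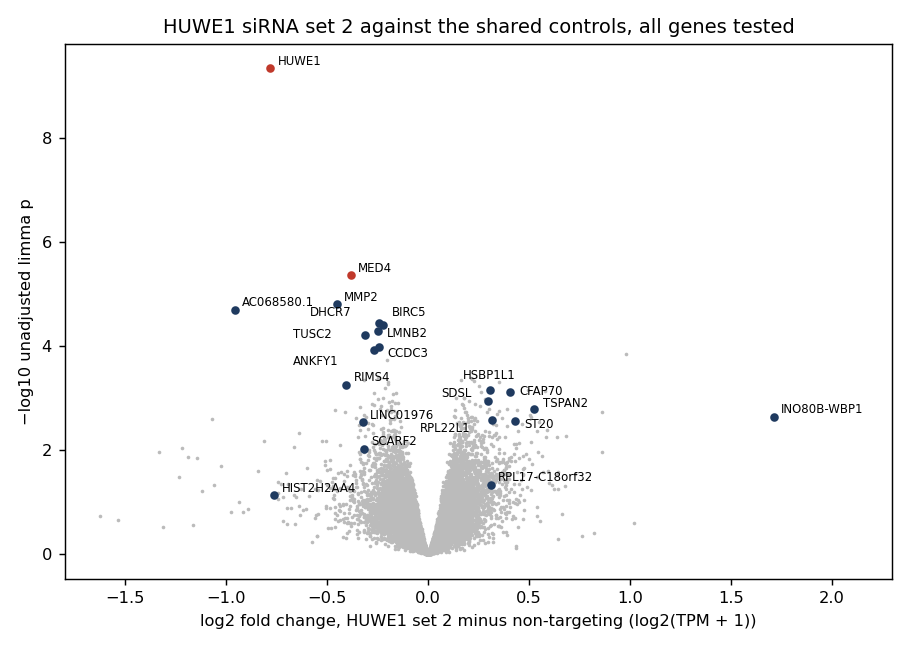
Each point is a gene tested in set 2 against the shared controls, with the log2 fold change on the x axis and the negative log10 of the unadjusted limma p on the y axis. Red points are HUWE1 and MED4, the 2 called genes; blue points are the other genes reported here for a small p or a large difference without overlap between the 4 and 4 values.

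HUWE1 itself stood at 161.7, 166.7, 165.5 and 159.1 TPM in the 4 control libraries and at 95.6, 94.3, 91.6 and 96.8 TPM in the 4 set 2 libraries. Every set 2 library lay far below every control, and the set 2 libraries lay close to each other. Set 2 left 57.9% of the control mean, a log2 fold change of -0.78 (95% interval -0.88 to -0.68; limma adjusted p = 7.45e-06). A two-sided exact permutation test of the TPM values gave p = 0.0286, the smallest that 4 against 4 allows. The set 3 libraries held 79.9, 89.7, 80.3 and 89.3 TPM, all under the set 2 values, and the difference of set 3 minus set 2 was -0.16 with a limma adjusted p of 0.134. HUWE1 was called in 19 of 19 alternative analyses, with fold changes from -0.81 to -0.77. A mixture of cells with strong and weak knockdown and an even knockdown in every cell cannot be told apart in bulk RNA.

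HUWE1 (ENSG00000086758.15) lies on the minus strand of the X chromosome at 53532096 to 53686729 in GRCh38. A pair of microRNA genes of the let-7 family, MIR98 and MIRLET7F2, lie inside it, and each overlaps 0 annotated HUWE1 exons, so both are intronic. The unspliced host transcript therefore spans both microRNA genes, while the spliced mRNA holds neither. The abundance of the 2 mature microRNAs was not measured. Both rows were listed at 0 in all 12 libraries, and the mRNA library kit used does not capture mature microRNAs. Their sequences, shown because they are the other products of the targeted locus, come from RefSeq on GRCh38.p14 and lie at chrX:53556299-53556320 and chrX:53557246-53557267, minus strand. They are written 5′ to 3′ with the seed (bases 2 to 8) in capitals.
hsa-miR-98-5p: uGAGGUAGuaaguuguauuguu
hsa-let-7f-5p: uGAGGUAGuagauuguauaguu
Both have the same seed and differ outside it. The other let-7 genes lie elsewhere in the genome and were not examined.

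The genes beside HUWE1 on the X chromosome were tested to see whether the difference was limited to the target transcript. All 11 neighbours tested had fold changes between -0.16 and 0.22, all 11 intervals lay within 0.5 either way, and the lowest limma adjusted p was 0.492. RIBC1, a component of ciliary microtubules, had 3.38, 3.36, 2.70 and 3.17 TPM in the controls and 3.95, 4.15, 4.03 and 3.23 TPM in set 2, and the groups overlapped. IQSEC2, an exchange factor for ARF GTPases at synapses, had 4.39, 3.92, 3.98 and 4.02 TPM in the controls against 3.67, 3.73, 3.55 and 3.51 TPM in set 2. The 4 IQSEC2 values of set 2 lay below all 4 controls, by a log2 difference of -0.14. Among the 11 neighbours IQSEC2 alone separated lower, against 1.71% of all genes. SMC1A, a cohesin subunit, was at 0.06, and the histone demethylase genes KDM5C and PHF8 were at -0.02 and -0.05.

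MED4 encodes a subunit of the middle module of Mediator, the complex that links transcription factors to RNA polymerase II. It lies on the minus strand of chromosome 13 at 48053323 to 48095131 in GRCh38 (ENSG00000136146.14). The controls held 75.6, 85.3, 83.2 and 85.4 TPM and the set 2 libraries 60.2, 62.2, 63.8 and 65.6 TPM. All 4 set 2 values were below the lowest control, control replicate 1. MED4 fell to 76.4% of the control mean, a log2 fold change of -0.38 (95% interval -0.49 to -0.27; limma adjusted p = 0.0347; exact permutation p = 0.0286, the smallest possible). MED4 was picked by its limma p on these same values. Any gene without overlap gives that permutation p, and 586 genes (3.69%) had none, so it is not separate support. The limma call was kept in 7 of 19 alternative analyses. Over the 19 the fold change stayed between -0.42 and -0.36 and the limma adjusted p ran from 0.0053 to 0.343. The call was lost without any one of 7 of the 8 libraries and kept without control replicate 1.

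In set 3 MED4 stood at 86.8, 80.7, 88.6 and 88.8 TPM, above every set 2 value and within or just above the controls. The difference of set 3 minus set 2 was 0.45 (limma adjusted p = 0.0032), and MED4 was lower in set 2 than in set 3. In set 1, whose table was normalized separately, MED4 had a fold change of -0.23 (limma adjusted p = 0.0025). Beside MED4, the 31 other Mediator subunits had fold changes from -0.13 to 0.20 with a median of -0.005, and all 31 intervals lay within 0.5. MED10, another subunit of the middle module, had 76.3, 66.0, 68.4 and 70.4 TPM in the controls and 64.2, 63.9, 63.7 and 64.7 TPM in set 2, without overlap. MED31 had 20.6 to 22.1 TPM in the controls and 22.4 to 23.0 TPM in set 2, without overlap in the other direction, at a log2 difference of 0.07. Of the 32 subunits tested, 1 separated higher and 2 lower, MED4 included, against 1.99% and 1.71% of all genes. MED19 had 30.8 to 34.4 TPM in set 2 (-0.09 against the controls) and 20.8 to 24.8 TPM in set 3 (-0.61). The difference between sets of -0.52 was called (limma adjusted p = 0.0086). In set 1 MED19 was at -0.76 (limma adjusted p = 1.35e-05). MED31 and MED19 were named after their values had been seen.

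**Figure D2:**
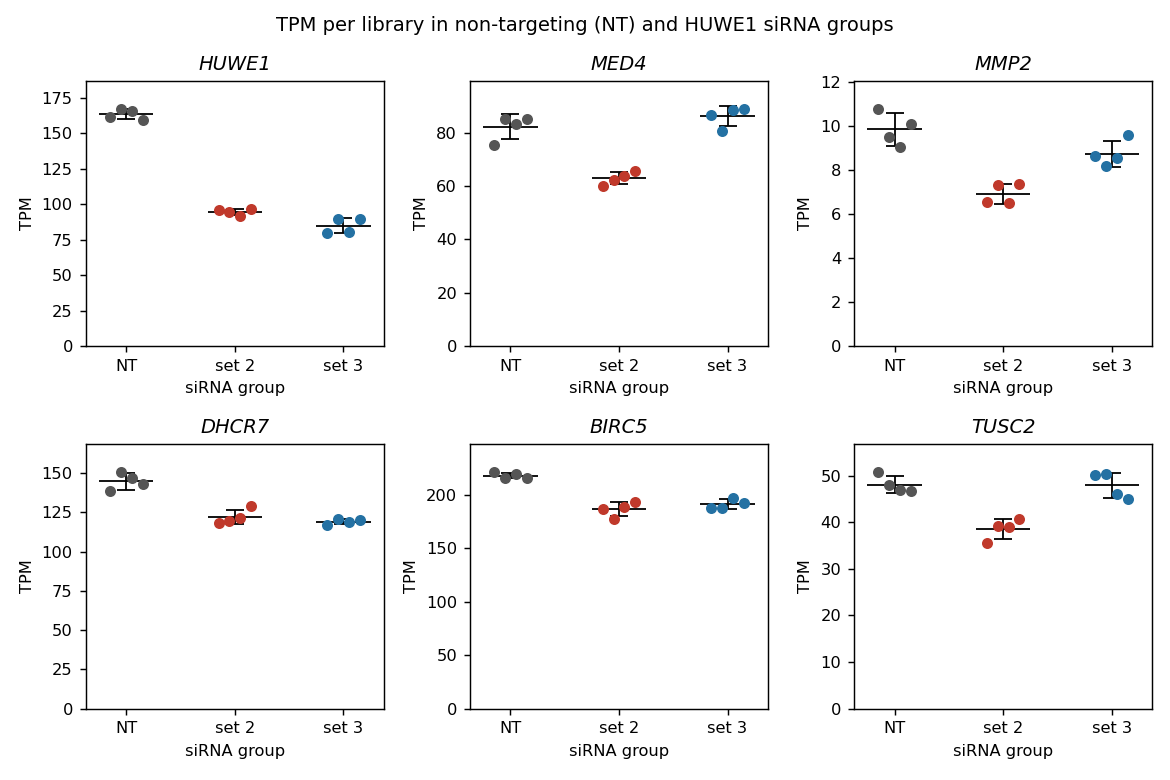
TPM (y axis, from 0) of 6 genes in the 4 libraries of each siRNA group (x axis); points are libraries, and the bars give the mean and SD. HUWE1 is low in both knockdown sets, while MED4 and TUSC2 are low in set 2 and near the control level in set 3.

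The 10 genes of smallest limma p were all lower in set 2, and in all 10 the 4 set 2 values lay below the 4 controls. Choosing genes by a small p on these same values favours such a separation, so it is not further support. Among all genes tested a complete separation was seen in 586 (3.69%), 271 lower (1.71%) and 315 higher (1.99%). Apart from HUWE1 and MED4 the limma adjusted p of the 10 genes ran from 0.0794 to 0.193, and these genes are given as values. MMP2, a secreted gelatinase that also stood on the fibroblast marker list, had 10.8, 9.50, 9.05 and 10.1 TPM in the controls and 6.56, 7.31, 6.52 and 7.35 TPM in set 2, a log2 difference of -0.45 (95% interval -0.59 to -0.31). The summed TPM of the 12 fibroblast markers, MMP2 included, was 31.2 to 34.1 in the controls and 27.0 to 29.2 in set 2. Of the others on that list COL1A1 was also lower without overlap (-0.19, and -0.12 without control replicate 1) and PDGFRA higher without overlap (0.15). Of the 12 markers 6 passed the filter, MMP2, COL1A1 and PDGFRA among them, while DCN, FAP and COL1A2 were near 0 in both groups. The part of other cell types in the MMP2 values was not tested.

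BIRC5, which encodes survivin, an inhibitor of apoptosis and a member of the chromosomal passenger complex, had 221.4, 215.8, 219.2 and 216.2 TPM in the controls. In set 2 it had 187.0, 177.4, 189.2 and 193.6 TPM, and in set 3 187.4, 187.5, 197.6 and 192.6 TPM. The controls were tightly grouped and all knockdown libraries lay below them. Sets 2 and 3 share these controls, so their differences from the controls are not independent, here and for other genes. The log2 difference of set 2 was -0.22 (95% interval -0.30 to -0.14; limma adjusted p = 0.105). LMNB2, which encodes lamin B2 of the nuclear lamina, had 227.7, 215.0, 211.1 and 205.7 TPM in the controls and 180.7, 177.5, 179.0 and 185.9 TPM in set 2 (-0.25). Its set 2 libraries were nearly equal, and the control spread was wider.

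TUSC2, a small mitochondrial protein gene on chromosome 3, had 50.7, 48.0, 46.9 and 46.7 TPM in the controls, 35.5, 39.1, 38.9 and 40.6 TPM in set 2 and 50.1, 50.4, 46.1 and 45.1 TPM in set 3. Set 2 was apart from both other groups, which overlapped. The log2 difference to the controls was -0.31 (limma adjusted p = 0.120), and set 3 minus set 2 was 0.31 (limma adjusted p = 0.0314). ANKFY1, an endosomal protein that binds RAB5, had 32.4 to 36.6 TPM in the controls and 28.2 to 29.4 TPM in set 2 (-0.27). CCDC3, which encodes a secreted protein, had 15.8 to 17.4 TPM in the controls and 13.2 to 14.3 TPM in set 2 (-0.25). The clone-type transcript AC068580.1 had 1.35 to 2.46 TPM in the controls and 0.35 to 0.72 TPM in set 2 (-0.96), levels at which few reads may stand behind a value.

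Among genes averaging at least 5 TPM whose groups did not overlap, the largest negative differences after HUWE1 included those of HIST2H2AA4 (-0.76), MMP2, RIMS4 (-0.41), MED4, LINC01976 (-0.32) and SCARF2 (-0.32). RIMS4, a regulator of synaptic vesicle release, had 54.5, 45.2, 47.2 and 38.6 TPM in the controls and 32.8, 33.6, 35.1 and 36.8 TPM in set 2. SCARF2, a scavenger receptor gene, had 18.9 to 28.1 TPM in the controls and 16.8 to 18.4 TPM in set 2. In both RIMS4 and SCARF2 control replicate 1 was the highest, and without it their differences were -0.33 and -0.21.

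The largest positive differences without overlap were in INO80B-WBP1, TSPAN2, ST20, CFAP70, RPL22L1, RPL17-C18orf32, HSBP1L1 and SDSL, at limma adjusted p from 0.413 to 0.556. TSPAN2, a tetraspanin of the plasma membrane, had 4.07, 5.77, 6.12 and 7.66 TPM in the controls, 8.76, 8.58, 9.15 and 8.61 TPM in set 2 and 8.79 to 11.6 TPM in set 3 (log2 difference of set 2, 0.53). The set 2 libraries lay close together above a spread control group. CFAP70, a protein of motile cilia, had 6.35, 7.42, 8.53 and 9.13 TPM in the controls and 11.4, 10.8, 11.1 and 9.46 TPM in set 2 (0.41). SDSL, a serine dehydratase-like enzyme, had 13.2 to 14.8 TPM in the controls, 15.4 to 19.8 TPM in set 2 (0.30) and 18.7 to 21.7 TPM in set 3 (0.48). RPL22L1, a paralog of the ribosomal protein gene RPL22, had 27.2, 30.1, 33.0 and 37.8 TPM in the controls and 37.9, 41.4, 41.5 and 39.0 TPM in set 2 (0.32). HSBP1L1 and ST20 differed by 0.31 and 0.43. Control replicate 1 was the lowest control in TSPAN2, ST20, CFAP70 and RPL22L1, and not in the other increases named here. INO80B-WBP1 was listed at 2.19, 0, 3.57 and 0 TPM in the controls and at 4.07, 3.63, 9.89 and 5.56 TPM in set 2, so no fold is given. INO80B-WBP1 and RPL17-C18orf32 are readthroughs of neighbouring genes, and how reads were divided between them and their parts is uncertain.

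**Figure D3:**
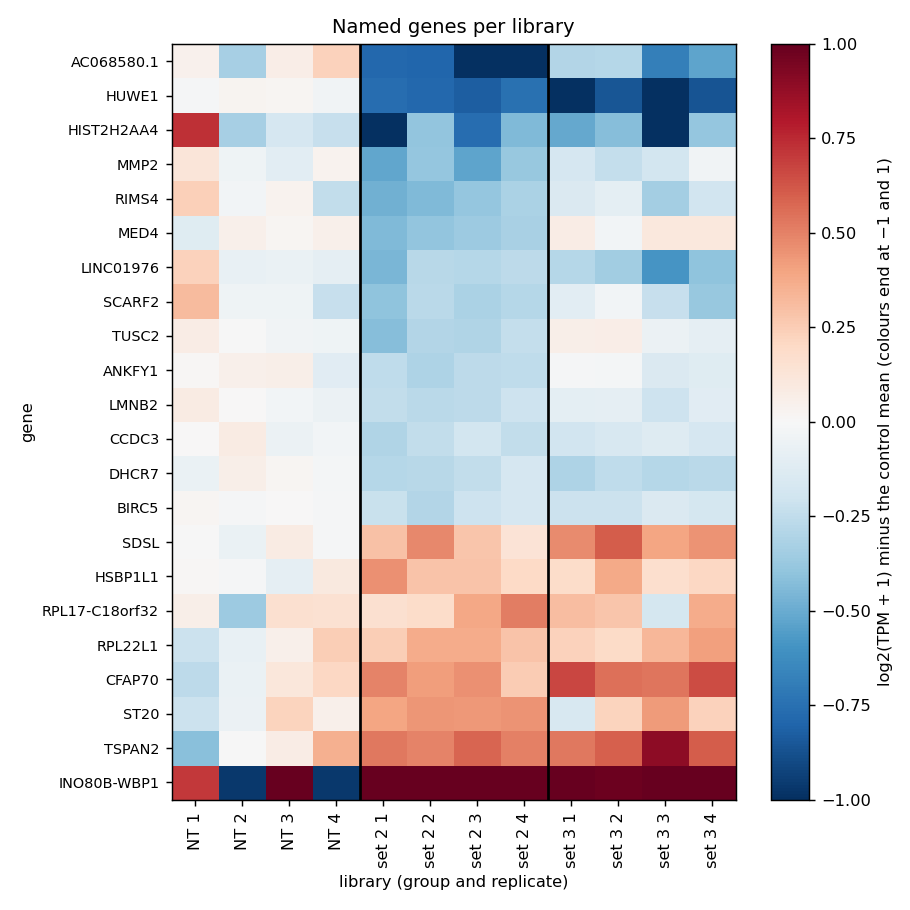
Rows are the genes of smallest p and those with the largest differences without overlap that are reported here; columns are the 4 control (NT), 4 set 2 and 4 set 3 libraries. Colour gives log2(TPM + 1) minus the control mean, ending at -1 and 1; set 2 columns are blue for every gene from AC068580.1 to BIRC5, and MED4 and TUSC2 are pale or red in set 3.

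Transcripts of proteins reported as HUWE1 substrates did not separate from the rest. Of 36 listed genes 33 were tested, 0 were called, and their fold changes ran from -0.32 to 0.21 with a median of -0.029. For 30 of 33 the interval lay within 0.5 either way. MYC, the transcription factor whose ubiquitination by HUWE1 is best known, had 326.6, 215.4, 256.5 and 139.8 TPM in the controls and 155.6, 186.5, 206.7 and 236.7 TPM in set 2. The controls spanned the whole set 2 range, and the log2 difference of -0.21 had an interval of -0.68 to 0.27. It was -0.03 without control replicate 1 and -0.43 without control replicate 4. MCL1, an anti-apoptotic BCL2 relative, differed by -0.04 (interval -0.22 to 0.14; control replicate 1 left out, 0.017). DDIT4, an inhibitor of mTORC1, had 1015 to 1925 TPM in the controls and 1003 to 1432 TPM in set 2 (-0.22, and -0.08 without control replicate 1). H2AFX, the gene of histone H2A.X, had 182.5, 123.0, 137.2 and 111.7 TPM in the controls and 97.3, 107.3, 113.7 and 118.2 TPM in set 2 (-0.32). Without control replicate 1 its difference was -0.18. DDIT3, the stress transcription factor CHOP, had 86.8 to 112.3 TPM in the controls and 98.2 to 123.9 TPM in set 2 (0.21). MYC, MCL1 and DDIT4 were named after their values had been seen.

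The other enzymes of the ubiquitin system did not pass the test. The 26 HECT ligases besides HUWE1 had fold changes from -0.11 to 0.14, with all 26 intervals within 0.5. ITCH, a ligase of the NEDD4 family, had 25.6 to 28.4 TPM in the controls and 27.7 to 31.6 TPM in set 2 (0.14). Among 35 E1 and E2 enzymes 0 were called and the median was -0.026. UBE2K, an E2 that builds chains linked through lysine 48, was the 1 of 35 that separated (1.71% of all genes did so lower), with 128.7 to 134.5 TPM in the controls and 114.1 to 127.9 TPM in set 2 (-0.08). The 36 proteasome genes had a median of 0.047, which was -0.001 without control replicate 1. PSMD4, a ubiquitin receptor of the proteasome, had 172.6 to 251.2 TPM in the controls and 207.7 to 253.6 TPM in set 2 (0.18, and 0.11 without control replicate 1).

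The largest one-sided pattern among the lists was in cytoplasmic ribosomal protein genes. All 77 tested had a fold change above 0 (48.3% of all genes), 0 were called, and the median was 0.12 with a range of 0.01 to 0.22. Ribosomal protein genes are known to be regulated together, so the 77 are not independent of each other. Their summed TPM was 109818, 119389, 116858 and 126687 in the controls and 123547, 132289, 128032 and 127391 in set 2. The groups overlapped: control replicate 4 was above set 2 replicate 1. RPS27 had 3388, 3478, 3462 and 3539 TPM in the controls and 3610, 4017, 3848 and 4056 TPM in set 2, without overlap (0.16). RPL10 had 807.1, 905.5, 877.3 and 943.5 TPM in the controls and 983.2, 1059, 958.4 and 990.7 TPM in set 2, also without overlap (0.18). RPS23 (0.17) and RPS4X (0.12) were the other members that separated, 4 of 77 higher against 1.99% of all genes. With quantile normalization 66 were above 0 and 10 below, and the median was 0.055. Without control replicate 1 the median was 0.081, and without control replicate 4 it was 0.15. In set 3, which shares the controls, the median was 0.12, and in set 1 it was 0.095.

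Because ribosomal protein transcripts are known for a run of pyrimidines at the start of transcription, the RefSeq promoter table (GRCh38.p14) was searched for CTTTC on the transcript's strand within 15 bases either side of the listed start. Of the 78 listed genes 61 were both tested and matched in that table. The motif was held by 31 of the 61 (50.8%), against 5.49% of all 27305 genes in the table, tested or not. CTTTC stood in 3 of 30 mitosis genes and 2 of 40 respiratory chain genes. Start windows of 30 bases are shown for 3 of the genes of smallest p on the list, with CTTTC in capitals, at chr1:153990747-153990776, chrX:154398362-154398391 and chr2:101002274-101002303, plus strand. RPL10 has 3 listed starts, of which 1 that holds the motif was chosen.
RPS27: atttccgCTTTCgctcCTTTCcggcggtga
RPL10: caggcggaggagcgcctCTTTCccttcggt
RPL31: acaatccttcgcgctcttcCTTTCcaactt
A match describes the letters in this window and is not evidence of a functional site.

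The mitochondrially encoded transcripts lay on the other side. All 13 had a fold change below 0 (51.7% of all genes), 0 were called, and the median was -0.086. Together with the other rows of the mitochondrial genome they made up 17.7% ± 0.762 of TPM in the controls and 16.9% ± 0.529 in set 2 (SD, n = 4 each), and single libraries ranged from 16.6% to 18.3% and from 16.3% to 17.5%. MT-CO1, a subunit of cytochrome c oxidase, had a log2 difference of -0.11 (limma adjusted p = 0.574). TPM is a share, so the mitochondrial total and every other gene's TPM are tied, and with the mitochondrial genes left out of the total the ribosomal protein median was 0.10. With quantile normalization 8 of the 13 were below 0, 3 above, and the rest at 0. The 49 nuclear genes of the respiratory chain had 40 members above 0 and a median of 0.045, which was 0.003 without control replicate 1.

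Cholesterol synthesis genes were mostly lower without passing the test. Of the 24 tested, 22 had a fold change below 0, 0 were called, and the median was -0.12. DHCR7, the reductase of the last step to cholesterol, had 138.2, 150.5, 146.8 and 142.8 TPM in the controls and 118.3, 119.2, 121.7 and 128.7 TPM in set 2. The groups did not overlap, the log2 difference was -0.24 (95% interval -0.33 to -0.16; limma adjusted p = 0.105), and set 3 held 116.7 to 120.7 TPM. EBP, a sterol isomerase, had 155.5, 166.8, 163.0 and 163.8 TPM in the controls and 150.5, 152.5, 145.5 and 149.3 TPM in set 2 (-0.12), and MVK, mevalonate kinase, differed by -0.09. DHCR7, EBP and MVK were the 3 of 24 that separated, against 1.71% of all genes lower without overlap. SREBF2, the transcription factor that drives the pathway, had 151.0, 172.9, 167.0 and 167.9 TPM in the controls and 155.7, 149.5, 144.8 and 144.8 TPM in set 2 (-0.15).

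The summed TPM of the 25 listed sterol genes was 3596, 4725, 4351 and 4638 in the controls and 4168, 3903, 3866 and 4209 in set 2. Control replicate 1 was below all set 2 libraries and the other 3 controls above them. The list median was -0.19 without that control and -0.087 without control replicate 4. It was -0.11 in set 3, which shares the controls, and 0.050 in set 1, which does not. In set 1 DHCR7 was at -0.03 (limma adjusted p = 0.445). Of 12 fatty acid synthesis genes 9 were below 0, with a median of -0.098. ACACA, which makes malonyl-CoA, had 70.4, 70.7, 69.9 and 67.7 TPM in the controls and 64.3, 60.0, 58.7 and 63.9 TPM in set 2, without overlap (-0.17), 1 of 12. FASN was at -0.17 and the desaturase gene SCD at -0.21, both with overlapping groups.

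Promoters of the sterol genes were read from the same RefSeq table, since SREBP factors are known to act with the CCAAT-binding factor NF-Y. The 250 bases before the listed start were searched on both strands for CCAAT, whose reverse complement is ATTGG, and for the sterol regulatory element known from the LDL receptor promoter. Of 25 sterol genes 18 were both tested and matched in the table. Of these 18, 16 held CCAAT (88.9%), against 37.0% of all 27305 genes of the table, tested or not. The share was 26 of 30 (86.7%) for mitosis genes, 7 of 11 for fatty acid synthesis and 19 of 61 for ribosomal protein genes. The sterol element stood in 12 of all genes (0.044%), including SREBF2 among the sterol genes and MID1IP1 among the fatty acid genes. The 250 bases of DHCR7 (chr11:71448394-71448643, minus strand), SREBF2 (chr22:41832855-41833104, plus strand) and EBP (chrX:48521558-48521807, plus strand) are shown 5′ to 3′ because these genes had some of the smallest p of the list. Capitals mark CCAAT on either strand and, in SREBF2, the longer sterol element.
DHCR7: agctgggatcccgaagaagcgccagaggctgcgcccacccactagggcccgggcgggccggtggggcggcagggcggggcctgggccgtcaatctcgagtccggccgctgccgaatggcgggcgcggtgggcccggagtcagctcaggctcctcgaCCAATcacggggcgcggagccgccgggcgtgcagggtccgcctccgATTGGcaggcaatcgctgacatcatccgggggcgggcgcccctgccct
SREBF2: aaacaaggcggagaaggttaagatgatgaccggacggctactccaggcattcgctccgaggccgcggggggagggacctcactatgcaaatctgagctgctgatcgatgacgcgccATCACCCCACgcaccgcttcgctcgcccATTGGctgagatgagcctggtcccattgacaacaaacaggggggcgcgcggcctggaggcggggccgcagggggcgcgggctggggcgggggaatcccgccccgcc
EBP: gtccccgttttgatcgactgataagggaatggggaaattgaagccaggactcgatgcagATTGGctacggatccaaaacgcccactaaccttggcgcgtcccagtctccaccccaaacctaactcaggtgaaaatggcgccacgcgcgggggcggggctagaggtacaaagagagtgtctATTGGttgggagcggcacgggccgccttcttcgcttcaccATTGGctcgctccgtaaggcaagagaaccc
DHCR7 holds CCAAT 2 times, EBP 3 times, and SREBF2 once beside the sterol element. DHCR7 has 2 listed starts, and the window shown belongs to the first entry of the table and lies inside the annotated gene. These matches are descriptions of the sequence, and binding was not measured.

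Histone genes gave the lowest median of all lists, and that median depended on control replicate 1. Of 22 tested, 19 were below 0 and 0 were called, and the median was -0.29. Their summed TPM was 376.8, 155.8, 202.4 and 142.3 in the controls and 125.0, 143.7, 143.1 and 186.0 in set 2. Control replicate 1 was far above every other library, and the other controls overlapped set 2. Without it the median was -0.11, and without control replicate 4 it was -0.43. HIST1H1E, a linker histone, had 4.78, 1.24, 2.45 and 1.65 TPM in the controls and 0.84, 0.59, 0.97 and 1.17 TPM in set 2 (-0.81). HIST2H2AA4, an H2A gene, had 52.2, 24.5, 27.6 and 26.4 TPM in the controls and 10.7, 23.4, 18.0 and 22.6 TPM in set 2, with an interval of -1.61 to 0.09. Both were separated, as was HIST1H4H (-0.32), 3 of 22 against 1.71% of all genes lower without overlap. Histone genes are near-identical copies whose mRNAs mostly lack a poly(A) tail, so their values depend on read assignment and on what the mRNA selection kept.

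**Figure D4:**
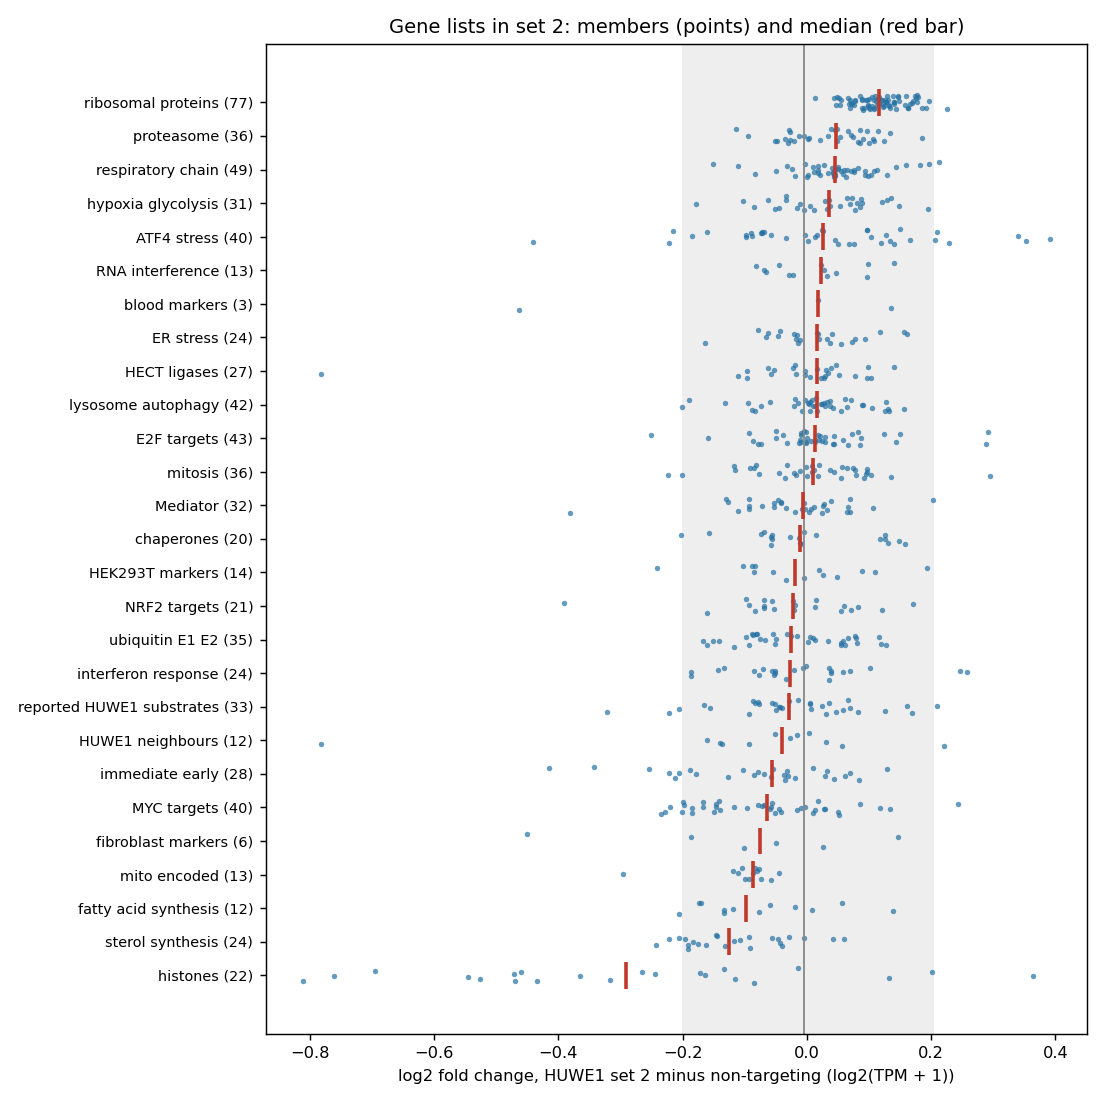
Points are members of each list, placed by log2 fold change of set 2 against the controls (x axis); red bars are list medians, the grey band spans the 5th to 95th percentile of all genes tested and the grey line is their median. The number of members tested stands beside each name. All ribosomal protein genes lie right of 0 and all but 1 lie inside the band.

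Cell cycle lists held genes on both sides. Of 36 mitosis genes 20 were above 0 and 16 below, with a median of 0.009 (-0.035 without control replicate 1). BIRC5 and PLK1 were the 2 of 36 that separated, both lower, against 1.71% of all genes. PLK1, the mitotic kinase, had 80.1, 77.9, 75.2 and 81.3 TPM in the controls and 71.8, 68.4, 66.5 and 66.4 TPM in set 2, and the log2 difference was -0.20 (95% interval -0.28 to -0.12; limma adjusted p = 0.244). Set 3 held 68.2 to 70.2 TPM. Among 43 E2F targets the median was 0.013. CCNE2, cyclin E2, had 27.3, 28.7, 30.4 and 33.5 TPM in the controls and 39.1, 33.2, 37.5 and 37.7 TPM in set 2 (0.29), and CCNE1, cyclin E1, had 27.3 to 40.6 TPM in the controls and 23.8 to 31.6 TPM in set 2 (-0.25, and -0.16 without control replicate 1). The cyclin E genes thus lay on opposite sides, both with overlapping groups.

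MYC target genes had 29 of 40 members below 0 and a median of -0.065, with 0 called. MYBBP1A and UTP20, nucleolar factors, were at -0.15 and -0.17, and at -0.09 and -0.10 without control replicate 1. CDKN1A, the p21 inhibitor of cyclin-dependent kinases, had 40.9 to 46.1 TPM in the controls and 41.7 to 43.5 TPM in set 2. The ATF4 stress list had 24 of 40 above 0 and a median of 0.025, against -0.17 in set 1. ATF5 had 24.3 to 43.8 TPM in the controls and 37.8 to 44.9 TPM in set 2 (0.34, and 0.20 without control replicate 2), and the mitochondrial enzyme PCK2 36.2 to 65.7 and 45.3 to 72.5 TPM (0.39).

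The remaining lists had medians near that of all genes and 0 called members. Interferon response genes passed the filter in 24 of 36 cases, with a median of -0.027 (0.019 without control replicate 1). IFI6 had 69.2 to 76.4 TPM in the controls and 60.1 to 67.6 TPM in set 2 (-0.19), without overlap. BST2, tetherin, had 14.3, 15.2, 14.4 and 19.3 TPM in the controls and 19.8, 18.3, 19.1 and 17.9 TPM in set 2 (0.25). Genes of RNA interference had a median of 0.023 (-0.025 without control replicate 4), and AGO2, the slicing Argonaute, was at 0.10 with 39.1 to 44.8 TPM in the controls and 42.2 to 49.5 TPM in set 2. For lysosome and autophagy genes the median was 0.015, and LAMP1, a lysosomal membrane protein, separated at -0.06. The ER stress list had a median of 0.017 (-0.001 without control replicate 2). DNAJB9, an ER co-chaperone, separated with 41.5 to 45.4 TPM in the controls and 46.8 to 49.4 TPM in set 2 (0.16). IFI6, LAMP1 and DNAJB9 were each the 1 member of their list of 24, 42 and 24 tested that separated, against 3.69% of all genes in either direction.

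For cytosolic chaperones the median was -0.012 (0.010 without control replicate 4), with HSPA8 at 0.16 and HSPA1A at -0.20. NRF2 targets had a median of -0.023 (0.001 without set 2 replicate 4). HMOX1, heme oxygenase, had 141.8, 74.1, 79.2 and 62.4 TPM in the controls and 60.7 to 71.0 TPM in set 2 (-0.39). Control replicate 1 was alone at its level, and without it the difference was -0.15. Hypoxia and glycolysis genes had a median of 0.035, which was -0.045 without control replicate 1. Immediate early genes had 20 of 28 below 0 and a median of -0.057. ID1, an inhibitor of DNA-binding factors, had 155.6, 100.9, 102.5 and 71.8 TPM in the controls and 65.2, 78.2, 79.8 and 89.0 TPM in set 2 (-0.41), and its groups overlapped. Without control replicate 1 the ID1 difference was -0.22. SPRY2, a feedback inhibitor of receptor signalling, was the 1 of 28 that separated, at -0.05, against 1.71% of all genes lower. HBA1 was at -0.46, with 2.75 to 4.01 TPM in the controls and 1.97 to 2.89 TPM in set 2. Another blood marker that passed, CD68, was at 0.14, and was below 0 without control replicate 3 or set 2 replicate 1.

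Set 2 and set 3 were compared directly in the fit of all 12 libraries, in which the controls enter only the estimate of the spread. Limma called 82 genes (0.517%), 49 higher in set 3 (0.309%) and 33 lower (0.208%). The genes of smallest p were read after their values had been seen. CDKN1A had 41.7, 42.3, 42.7 and 43.5 TPM in set 2 and 67.9, 66.4, 62.3 and 62.4 TPM in set 3, against 40.9 to 46.1 TPM in the controls. The set 2 libraries lay inside the control range and all set 3 libraries above it, a difference of 0.59 (limma adjusted p = 2.40e-04). FAM120A, an RNA-binding scaffold, had 64.2 to 68.0 TPM in set 2 and 46.2 to 49.6 TPM in set 3, and SRPRA, a subunit of the signal recognition particle receptor, 82.9 to 94.5 and 59.9 to 63.9 TPM. In both the controls, at 66.5 to 70.5 and 80.6 to 85.3 TPM, overlapped set 2 and not set 3. SKP2, an F-box protein that targets p27, had 165.8 to 184.4 TPM in set 2 and 129.4 to 138.2 TPM in set 3.

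For BTG3 and PRNP the control mean lay between the sets. BTG3, an antiproliferative gene, had 62.1, 67.0, 64.5 and 73.3 TPM in the controls, 57.6, 57.1, 58.8 and 54.3 TPM in set 2 and 76.6, 75.1, 82.5 and 77.8 TPM in set 3. The set 3 minus set 2 difference was 0.45 (limma adjusted p = 0.0043), while against the controls set 2 was at -0.22 (adjusted p = 0.417) and set 3 at 0.22 (adjusted p = 0.0250). PRNP, the prion protein gene, had 52.6 to 59.4 TPM in the controls, 46.4 to 51.1 TPM in set 2 and 62.7 to 65.7 TPM in set 3, a difference of 0.37 (limma adjusted p = 0.0043). Of the 10 genes of smallest p in set 2, MED4 and TUSC2 were the 2 called between sets. DHCR7 and BIRC5 differed between sets by -0.03 and 0.03, with limma adjusted p of 0.676 and 0.648. The count of genes called between sets was 335 when only those 8 libraries were fitted and 20 to 68 when a library was left out.

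Set 1 shares no library with set 2 and gives an outside list. Limma called 4863 of 16057 genes there (30.3%). HUWE1 was left out, and 4766 of the called genes were tested in set 2. Of these 71.7% had the same sign in set 2, against 61.9% of all 15295 genes tested in both tables. The 1959 genes higher in set 1 had a median of 0.19 there and 0.046 in set 2, and the 2807 lower genes had -0.21 and -0.063. The set 2 interval left out the set 1 value for 46.3% of the called genes, against 26.1% of all 15295. The called genes were chosen by their set 1 values, and the interval does not include the error of set 1. Without control replicate 1 the same-sign shares were 59.2% and 56.1%, and without control replicates 1 and 4 together they were 66.6% and 59.0%. These shares describe genes that are not independent and were not tested.

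**Figure D5:**
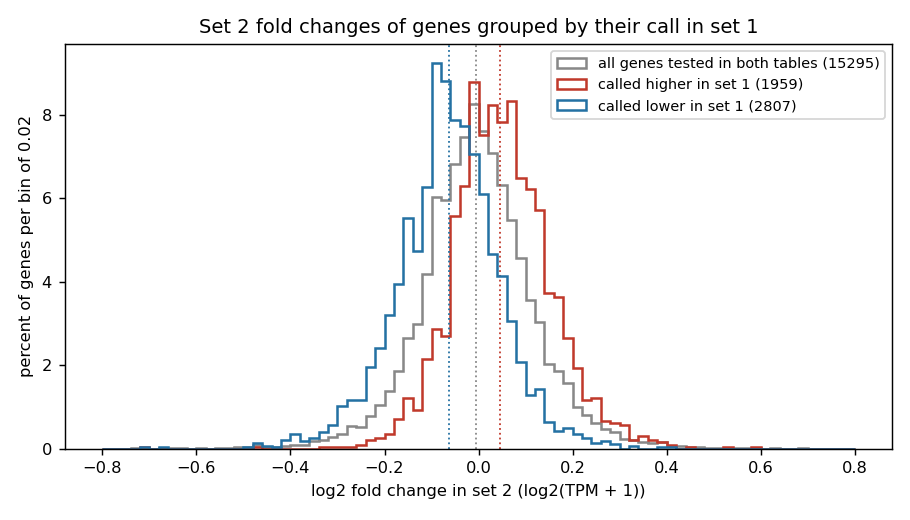
Distribution of log2 fold changes in set 2 (x axis) as percent of genes per bin (y axis), for all 15295 genes tested in both tables, the 1959 called higher and the 2807 called lower in set 1. Dotted lines are medians, at 0.046 and -0.063 for the called groups; genes past the ends of the axis are not drawn.

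The genes with the largest set 1 changes mostly had smaller changes in set 2. Choosing genes by their set 1 values by itself favours smaller values in a second comparison. INHBE, an activin subunit, was at -1.23 in set 1 and had 9.63 to 33.7 TPM in the set 2 controls and 9.43, 11.8, 13.1 and 16.2 TPM in set 2 (-0.44). The groups overlapped, and the controls spread more widely. Without control replicate 1 the INHBE difference was -0.13. S100P, a calcium-binding protein, was at -1.17 in set 1 and at -0.24 in set 2, with 9.32 to 13.3 TPM in the controls and 6.98 to 9.20 TPM in set 2, and at -0.13 without control replicate 1. G0S2, an inhibitor of triglyceride lipase, was at -0.91 in set 1 and -0.29 in set 2, and at 0.02 without control replicate 1. PLIN5, a lipid droplet coat protein, was at 0.83 in set 1 and had 1.44 to 1.69 TPM in the controls and 1.48 to 1.82 TPM in set 2 (0.06, interval -0.15 to 0.27). CCND1, cyclin D1, was at 0.54 in set 1 and had 16.3 to 18.5 TPM in the controls and 14.1 to 16.8 TPM in set 2 (-0.16), on the other side of 0. PLA2G6, a phospholipase, was at 0.55 in set 1 and 0.19 in set 2. MIR22HG and IFI35 were at 0.76 and 0.64 in set 1 and at 0.11 and 0.26 in set 2, with overlapping groups. Without control replicate 1 these were 0.22 and 0.09.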

How the data were processed

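RNA from HEK293T cells was made into libraries with a stranded mRNA kit, per the labels' protocols. For the 12 libraries of sets 2 and 3 the authors deposited TPM in 1 table and for the 8 of set 1 in another. The submitters' processing notes name hg38 as the build. Which aligner, counter and gene annotation were used was not stated in the sources used here. Because all libraries sum to 1 total, their depth is unknown, and intervals for counting error cannot be given. From these values log2(TPM + 1) was computed, genes reaching 1 TPM in 4 or more of the 12 libraries were kept, and limma 3.58.1 in R 4.3.3 was fitted with a variance trend to the 3 groups together. Set 1 was fitted separately, and nothing was tested across tables. The procedure was tested on simulated data.

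Named genes were HUWE1, called genes, the 10 of smallest p, the 8 largest differences in each direction without overlap with a mean of at least 5 TPM (clone-type names passed over), up to 4 members of smallest p of each list, and the 5 largest set 1 changes in each direction. Genes outside this rule were named after their values were seen, and a few genes within it are not reported here. The members and the 29 gene lists (844 entries, 839 in the table) were chosen with earlier results of these data known. Coordinates are from GENCODE annotation on GRCh38, and sequences from RefSeq tables on GRCh38.p14.

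The fit of set 2 against the controls was recomputed with no filter, with genes averaging at least 5 TPM and with 0.1 as pseudocount. It was also recomputed with quantile normalization, with median-of-ratios scaling and with TPM without mitochondrially encoded genes. Further fits used limma without the trend or with robust variance, a block for replicate number, or just the 2 groups of the comparison. Each library was also left out in turn. The count of genes called between the knockdown sets was recomputed only with the replicate block, on just its 2 groups, and leaving out each of their libraries. No other filter, pseudocount or normalization was tried for that count. The share of set 1 genes with the same sign was recomputed only with median-of-ratios scaling and with libraries left out. Leaving out control replicates 1 and 4 together was added after seeing the data.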

Additional observations from a re-analysis of the deposited data

Results flagged for a closer look

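In 18 of 320 groups of 4 values, 1 library stood apart from the other 3 (its gap to the nearest value, divided by the range, passed Dixon's 95% limit). Chance gives about 1 in 20 such groups. In the controls, replicate 1 stood apart for HIST2H2AA4 (52.2 TPM against 24.5 to 27.6), LINC01976 (10.7 TPM against 8.38 to 8.5), S100P (13.3 TPM against 9.32 to 9.41), ST20-MTHFS (19.8 TPM against 11.1 to 12.2) and NQO1 (5.05 TPM against 6.24 to 6.45). Control replicate 4 stood apart for BST2 (19.3 TPM against 14.3 to 15.2), CCT2 (268.6 TPM against 213.2 to 219.1) and the summed HEK293T markers (1690.5 TPM against 1428 to 1472), and control replicate 3 for TNRC6B (16.3 TPM against 15.3 to 15.4).

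In set 2, replicate 1 stood apart for LINC01976 (6.24 TPM against 7.15 to 7.30), AGO4 (28.5 TPM against 23.5 to 24.0), WDR74 (25.2 TPM against 29.2 to 29.5), ADRM1 (105.0 TPM against 96.3 to 97.1), IFI35 (11.1 TPM against 7.88 to 8.34) and the summed chaperones (9070 TPM against 8398 to 8458). Replicate 2 stood apart for ANKFY1 (28.2 TPM against 29.2 to 29.4), replicate 3 for S100P (6.98 TPM against 8.97 to 9.20) and replicate 4 for the summed Mediator subunits (1425 TPM against 1364 to 1374).

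A test of the difference between sets 3 and 2 passed the threshold for 3 of the genes named by the rule above. Genes named after their values were seen, such as CDKN1A and MED19, are not in that count. Set 3 minus set 2 was 0.45 for MED4, 0.31 for TUSC2 and 0.19 for AKR1B1, an aldose reductase whose limma adjusted p was 0.0416 and whose set 2 libraries held 161.9 to 173.8 TPM against 191.4 to 193.5 in set 3.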

How the results depend on the processing

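HUWE1 was called in all 19 alternatives. The count of called genes was 1 with median-of-ratios scaling, without the variance trend, with the replicate block and with only the 2 groups compared, 6 without mitochondrially encoded genes (HUWE1, MED4, MMP2, DHCR7, BIRC5 and AC068580.1), 3 with quantile normalization or no filter, and 1 to 2 when a library was left out. MED4 missed the threshold at -0.38 with median-of-ratios scaling, without the trend, with the replicate block and with only the 2 groups, and at -0.36 with quantile normalization; without 1 library it ranged from -0.42 to -0.36. Genes called between sets 3 and 2 numbered 17 with the replicate block, 335 with only those 2 groups, and 20 to 68 without 1 library. Genes without overlap numbered 783 to 2703 without 1 library, where fewer values must separate, and 3455 without control replicates 1 and 4. Counts at an unadjusted p under 0.05 ran from 939 to 3983, the latter without control replicate 4. The Mediator median was 0.0064 with quantile normalization, -0.021 without mitochondrially encoded genes, -0.019 without control replicates 1 and 4, and -0.024 to 0.00092 without 1 library. The fibroblast median was -0.19 at a mean TPM of 5 or more. The share of set 1 genes with the same sign was 59.2% to 75.2% without 1 library and 66.6% without control replicates 1 and 4. Signs turned without 1 library for CD68 (-0.017 and -0.0026; up to 0.29), G0S2 (0.019; down to -0.64) and MCL1 (0.017; down to -0.12). Same-numbered control and set 2 libraries had deviations correlated at -0.48 to 0.039 over genes. Control replicate 4 with set 2 replicate 1 was at 0.45, and control replicate 1 with set 2 replicate 4 at 0.42. These values do not settle whether the numbers pair libraries. The causes were not tested. Unknown depth limits what can be said of low genes.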
